A study of Mus musculus with 4 samples.

Results

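The 32 genes described here are a module of hypoxia-induced and glycolytic genes, named by symbol, out of 35866 gene symbols in the deposited tables. They comprise 12 glycolytic enzymes, from hexokinase to lactate dehydrogenase, and 20 other hypoxia genes: 2 transporters of glucose and lactate, 3 kinases that steer glycolytic flux, 3 genes of oxygen sensing and 12 further hypoxia-induced genes. All 32 were abundant enough to be tested. Their transcripts were sequenced from poly-A RNA of tumour cells of the mouse lung line LLC (Lewis lung carcinoma), which had grown for 4 weeks under the flank skin of C57BL/6 mice. Cells with TdTomato signal but without CD45, a surface protein of leukocytes, had been sorted. The 2 WT libraries came from hosts with floxed Padi4 alleles (Padi4fl/fl) and no Mrp8Cre, and the 2 PAD4-DN libraries from Padi4fl/fl hosts that carried Mrp8Cre, a driver active in neutrophils. Padi4 encodes PAD4, an enzyme that converts arginine to citrulline in histones and is known for its part in neutrophil extracellular traps. All 4 libraries thus share the floxed alleles and the single tumour line, and the deletion lies in host cells, not in the sorted cells, whose Padi4 level does not check the labels. Values are given throughout for replicate 1 and then replicate 2 of a group. The sources used here give neither the age of the hosts nor whether each library is 1 animal or a pool, and every p-value here therefore reflects no more than library-to-library spread, which may be technical.

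Hypoxia-inducible factor (HIF) is a transcription factor whose alpha subunit is hydroxylated and destroyed when oxygen is plentiful. When oxygen falls, the alpha subunit persists, pairs with ARNT and switches on genes for glucose uptake, glycolysis, lactate export, pH control and blood vessel growth. Tumours often run glycolysis at a high rate even in oxygen, and solid tumours implanted under the skin commonly contain hypoxic regions.

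The libraries held 20036322 to 25327974 estimated counts. Of the epithelial and LLC markers, Krt8 lay between 131 and 178 TPM (a unit scaled for transcript length), Krt18 between 184 and 227 TPM and Vim between 3155 and 3598 TPM. Krt7, on 13 to 33 counts a library, was at 0.192 and 0.260 TPM in WT and 0.417 and 0.506 TPM in PAD4-DN. Epcam, Cdh1 and the lung lineage factor Nkx2-1 had at most 7 counts in any library, and Sftpc and Scgb1a1 had 0 in all 4. TdTomato itself was not analysed here. The pan-leukocyte markers, all 5 of them detected in every library, summed to 9.10 and 13.1 TPM in WT and 21.7 and 4.42 TPM in PAD4-DN.

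HIF binds a short core, ACGTG or GCGTG, in the regulatory DNA of its targets. RefSeq promoters (build GRCm38.p6) were found for 30 of the 32 genes, all but Ndrg1 and Bhlhe40, and the 250 bases before the start site of the first promoter listed for each were searched on both strands for ACGTG and GCGTG. The core was present in 24 of the 30 (80%), in 8 of the 12 enzymes and 16 of the 18 other genes. Among all 27025 promoters, 38.6% held it, and among the 10211 promoters of genes abundant enough to test, 55.4%. At least 2 cores, counting the palindrome CACGTG once, were found in 16 of the 30 promoters and in 13.8% of all promoters. The share with at least 2 cores was not computed for the promoters of genes abundant enough to test. A match describes letters in this window and shows no binding. Gpi1, Aldoa, Tpi1, Pkm, Mif and Mxi1 had none in it. Of these, Aldoa and Mxi1 have 3 promoters listed and Pkm has 2, and those after the first were not counted. The promoters of Ankrd37 and Bnip3, which held the most cores (4 each), of the enzyme gene Ldha (3 cores) and of the glucose transporter gene Slc2a1 (2 cores) are shown from 5′ to 3′ on the strand of the gene, ending at the base before the start site, with the cores on either strand in capitals.
Ankrd37, chr8:45999851-46000100, minus strand: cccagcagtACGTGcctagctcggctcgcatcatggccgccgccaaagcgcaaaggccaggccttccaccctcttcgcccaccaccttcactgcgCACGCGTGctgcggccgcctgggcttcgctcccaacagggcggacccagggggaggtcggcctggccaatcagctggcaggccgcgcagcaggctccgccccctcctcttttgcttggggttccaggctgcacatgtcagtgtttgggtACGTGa
Bnip3, chr7:138909507-138909756, minus strand: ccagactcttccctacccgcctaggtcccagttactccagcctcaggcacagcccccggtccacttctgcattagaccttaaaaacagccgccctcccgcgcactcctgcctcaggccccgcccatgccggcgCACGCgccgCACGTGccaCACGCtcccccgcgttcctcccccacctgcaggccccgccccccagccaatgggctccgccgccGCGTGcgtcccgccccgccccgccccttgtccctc
Ldha, chr7:46845554-46845803, plus strand: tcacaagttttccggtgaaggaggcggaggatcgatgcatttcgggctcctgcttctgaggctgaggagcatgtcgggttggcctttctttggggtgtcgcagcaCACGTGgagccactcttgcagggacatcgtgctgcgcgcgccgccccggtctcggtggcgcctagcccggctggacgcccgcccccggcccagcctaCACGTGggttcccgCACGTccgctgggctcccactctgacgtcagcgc
Slc2a1, chr4:119108495-119108744, plus strand: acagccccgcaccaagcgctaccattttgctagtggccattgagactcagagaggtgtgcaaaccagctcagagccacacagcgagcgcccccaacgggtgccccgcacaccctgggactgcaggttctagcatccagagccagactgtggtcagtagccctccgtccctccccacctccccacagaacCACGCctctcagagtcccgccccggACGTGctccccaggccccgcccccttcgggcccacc

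Levels are described first, on the TPM scale, which allows genes to be compared. The module made up 1.55% and 1.10% of all TPM in the WT libraries and 1.19% and 1.26% in those of PAD4-DN. The means were 1.33% ± 0.320 (SD, n = 2) in WT and 1.22% ± 0.0489 (SD, n = 2) in PAD4-DN, and both PAD4-DN libraries lay between the WT libraries. The 12 enzymes alone made up 1.25% and 0.93% in WT and 0.959% and 0.995% in PAD4-DN. Gapdh was the most abundant gene of the module, with a mean of 3392 TPM over the 4 libraries, followed by Pkm at 1691, Ldha at 1297 and Eno1 at 1132 TPM. Pgk1 (737 TPM), Aldoa (678 TPM) and Pgam1 (642 TPM) came next and were close to each other, with overlapping library values. The most abundant genes outside the pathway itself were Mif, a secreted cytokine, at 499 TPM, and Ero1a, an oxidase of the endoplasmic reticulum, at 317 TPM. Slc2a1 had a mean of 251 TPM, but its libraries ran from 138 to 379 TPM, across the means of several neighbours in the order. At the low end were Ankrd37 (18.1 TPM), Car9 (7.22 TPM), Pfkfb3 (6.33 TPM) and Pfkfb4 (1.83 TPM). Car9, a carbonic anhydrase of the cell surface widely used as a hypoxia marker, was thus among the least abundant members, with 71 to 229 counts a library.

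**Figure D1:**
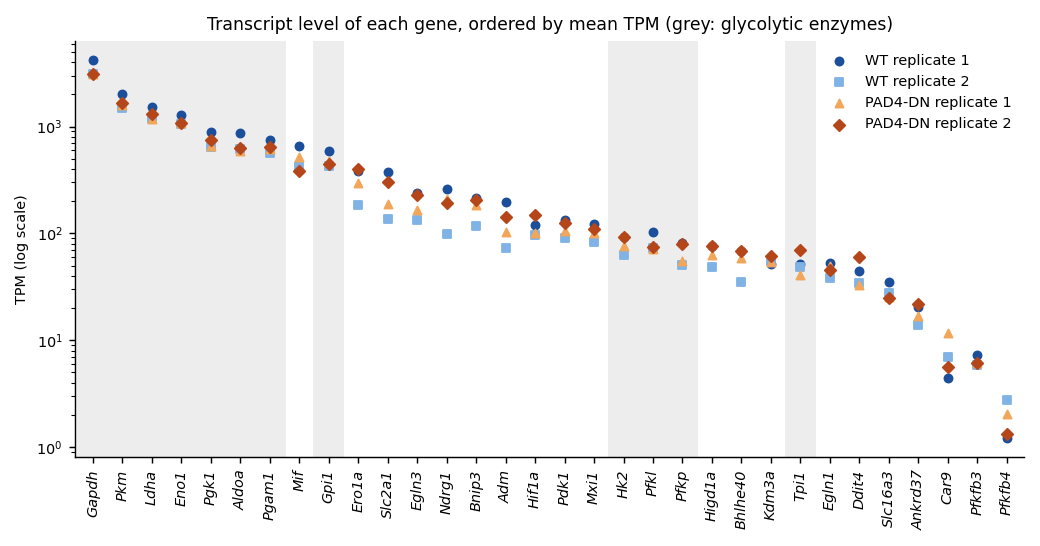
Level of each gene in TPM (log axis) in the 4 libraries, ordered by mean TPM, with glycolytic enzymes on grey. The enzymes fill the top 7 places, from Gapdh at a mean of 3392 TPM to Pgam1 at 642 TPM, and Pfkfb4 is lowest at 1.83 TPM.

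The comparison of PAD4-DN with WT asked whether tumour cells differ when host neutrophils lack Padi4. None of the 32 genes passed by edgeR's quasi-likelihood test with Benjamini-Hochberg adjustment over 13706 genes, of which 0.0% passed. The smallest adjusted p in the module was 0.988. At an unadjusted p under 0.05 there was 1 member, Slc16a3, against 2.66% of all genes tested (1.42% lower and 1.25% higher in PAD4-DN). On the log2 scale the fold changes (PAD4-DN minus WT) ran from −0.49 to 0.32 with a median of −0.03, and the median over all genes tested was 0.01. The 12 enzymes had a median of −0.20, with 10 of 12 below 0, and the 20 other genes a median of 0.01, with 8 of 20 below 0, while 48.5% of all genes tested were below 0. The lower enzyme median turned to 0.09 without WT replicate 1, and on log2(TPM + 1) it was −0.10, where the median over all genes was 0.06. In CPM, Gapdh and Slc16a3 were the only members lower in each PAD4-DN library than in either WT library, 2 of 32 against 17.4% of all genes. On the TPM scale this held for Slc16a3 but not for Gapdh, which was at 4236 and 3099 TPM in WT and at 3124 and 3107 TPM in PAD4-DN. In CPM, no member was higher in each PAD4-DN library than in either WT library, against 15.4% of all genes. For a single value, 0.333 is the smallest two-sided p that exact permutation allows with 2 libraries a group.

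The members differed between the 2 WT libraries. Their median absolute gap on the log2(CPM) scale was 0.54 between the WT libraries and 0.24 between the PAD4-DN libraries, and over all genes tested 0.19 and 0.26. The median absolute log2 fold change between groups, which compares means and so varies less than a gap between single libraries, was 0.18 for the members and 0.16 for all genes. In CPM (counts scaled by TMM to a common library total, to compare a gene between libraries), WT replicate 1 was the highest of the 4 libraries for 26 of 32 members, against 22.0% of all genes tested, and WT replicate 2 the lowest for 19 of 32, against 21.0%. WT replicate 2 was highest for 0 members (22.2% of all genes), PAD4-DN replicate 1 for 2 (27.7%) and PAD4-DN replicate 2 for 4 (28.1%). WT replicate 1 was lowest for 1 member (23.7% of all genes), PAD4-DN replicate 1 for 7 (26.4%) and PAD4-DN replicate 2 for 5 (29.1%). In CPM, WT replicate 2 was lowest for 5 of 12 enzymes and 14 of 20 others, and on the TPM scale for 9 of 12 enzymes and 14 of 20 others. Both PAD4-DN libraries lay between a higher WT replicate 1 and a lower WT replicate 2 for 18 of 32 members, against 5.72% of all genes (11.5% with either WT library highest). On the TPM scale WT replicate 1 was highest for 24 members, against 13.4% of genes, and WT replicate 2 lowest for 23, against 23.2%. WT replicate 1 was at least 1.3 times WT replicate 2 in CPM for 25 members, 10 of them enzymes, against 12.7% of all genes, and at least 1.5 times for 12 members, 2 of them enzymes, against 8.14%. The median gap between the WT libraries, replicate 1 minus replicate 2, was 0.54 on the log2(CPM) scale over the module, 0.52 for the enzymes and 0.60 for the other genes, and −0.02 over all genes. Between the PAD4-DN libraries, replicate 2 was the higher for 23 of 32 members, against 48.7% of all genes, and the median of replicate 1 minus replicate 2 was −0.20. Relative to the mean of the 4 libraries, the module's median was 0.31 in WT replicate 1, 0.10 in PAD4-DN replicate 2, −0.13 in PAD4-DN replicate 1 and −0.22 in WT replicate 2. Each library is 1 sample, so this order has no replicate check. WT replicate 1 also stood apart in the deposited lengths, with a median of 223.9 bases between a transcript's length and its effective length, against 236.8 to 239.4 bases in the other 3 libraries. The part of this in the order of the libraries was not tested.

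**Figure D2:**
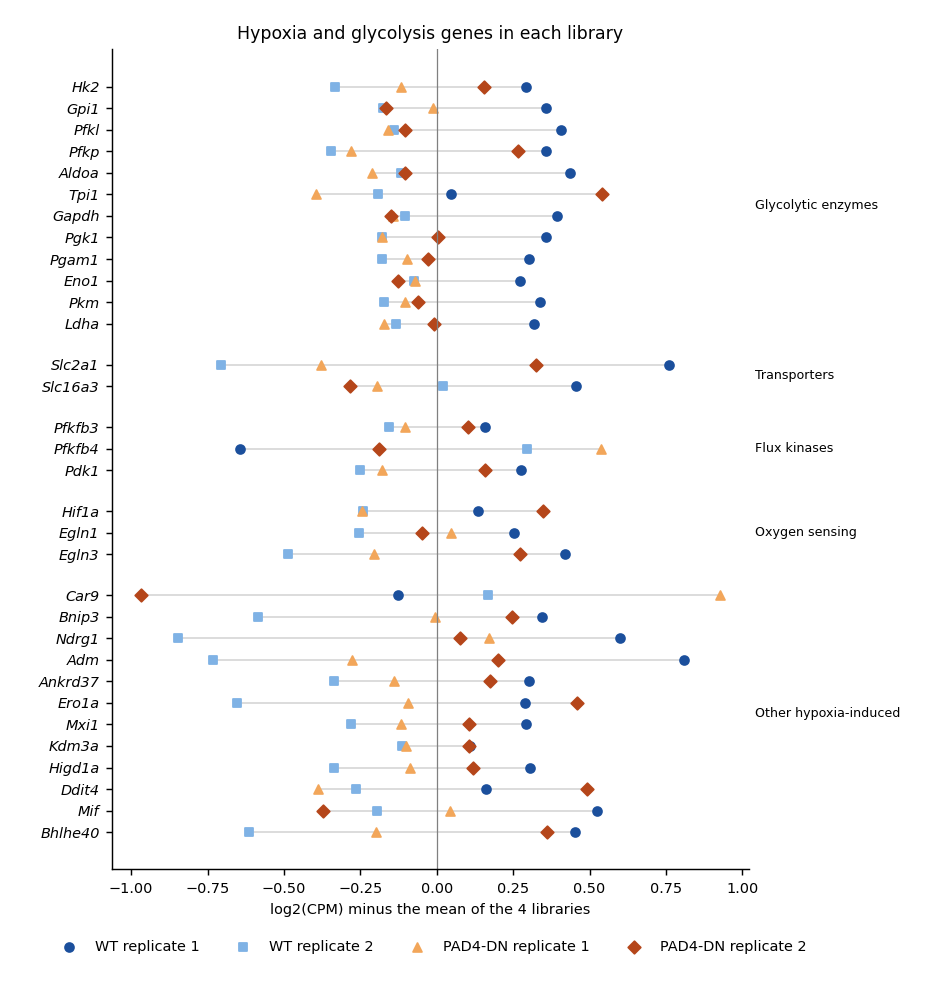
Each gene's log2(CPM) in the 4 libraries minus their mean, grouped by role. WT replicate 1 (dark blue circles) is the highest point for 26 of 32 genes and WT replicate 2 (light blue squares) the lowest for 19, with the PAD4-DN libraries mostly between them.

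Glucose enters the cell through Slc2a1, the main glucose transporter of many tumour cells. Slc2a1 was at 674 and 244 CPM in WT hosts and, in PAD4-DN hosts, at 306 and 498 CPM. The WT libraries were thus the highest and the lowest of the 4, 2.76-fold apart, and both PAD4-DN libraries lay between them. Its log2 fold change between groups was −0.19 (SE 0.50, adjusted p = 0.992 by edgeR), and on log2(TPM + 1) it was 0.06. Slc16a3 encodes a monocarboxylate transporter that exports lactate. It was at 40.4 and 29.9 CPM in WT hosts and, in PAD4-DN hosts, at 25.7 and 24.2 CPM, so that the groups did not overlap. Its log2 fold change was −0.49 (SE 0.18, unadjusted p = 0.0380, adjusted p = 0.988 by edgeR), the most negative of the module.

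Hexokinase 2, encoded by Hk2, traps glucose in the cell by phosphorylation. Hk2 was at 375 and 243 CPM in WT hosts and, in PAD4-DN hosts, at 282 and 340.5 CPM, with the order of libraries seen for Slc2a1. Gpi1, the isomerase of the second step, was at 773 and 533 CPM in WT hosts and, in PAD4-DN hosts, at 597 and 537 CPM. Phosphofructokinase commits the sugar to glycolysis, and its liver form Pfkl and platelet form Pfkp were of like abundance, at means of 80.2 and 66.4 TPM. Pfkl was at 256 and 175 CPM in WT hosts and, in PAD4-DN hosts, at 173 and 179.8 CPM, with WT replicate 1 apart from 3 close libraries. Pfkp, which shares 5.28% of its 31-base words with the overlapping gene Pitrm1, was at 166 and 102 CPM in WT hosts and, in PAD4-DN hosts, at 107 and 156 CPM, where PAD4-DN replicate 2 came near WT replicate 1. The enzymes of this upper part of the pathway thus shared a high WT replicate 1, and differed in where PAD4-DN replicate 2 fell.

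Aldoa, which splits the 6-carbon sugar, was at 764 and 521 CPM in WT hosts and, in PAD4-DN hosts, at 488 and 526 CPM. Gapdh, the dehydrogenase of the next stage and a common reference gene, was at 3022 and 2139 CPM in WT hosts and, in PAD4-DN hosts, at 2082 and 2073 CPM. WT replicate 1 was 1.41 times WT replicate 2 in Gapdh, and the other 3 libraries lay close together. Pgk1, which makes the first ATP of the pathway, was at 1087 and 749 CPM in WT hosts and, in PAD4-DN hosts, at 748 and 849 CPM. Pgam1, the mutase, was at 881 and 632 CPM in WT hosts and, in PAD4-DN hosts, at 668 and 701 CPM. Eno1, the enolase, was at 1707 and 1343 CPM in WT hosts and, in PAD4-DN hosts, at 1346 and 1297 CPM. The WT gap of Eno1, 1.27-fold, was the second smallest among the enzymes, after the 1.18-fold gap of Tpi1. Ldha, which turns pyruvate to lactate, was at 1569 and 1146 CPM in WT hosts and, in PAD4-DN hosts, at 1115 and 1249.6 CPM. Log2 fold changes of these 6 enzymes lay between −0.34 (SE 0.21) for Aldoa and −0.14 (SE 0.19) for Pgam1, and those of Aldoa, Gapdh and Eno1 were the only ones of the 12 enzymes to stay below 0 when each library was left out in turn. Sequence shared with other genes limits several of these values. Of the 31-base words in a gene's transcripts, 54.7% for Pgk1, 37.1% for Pgam1, 28.5% for Eno1 and 28.1% for Gapdh occurred in other genes, and counts assigned to such genes came to 12.4% to 14.0% of Pgk1 counts and 19.8% to 22.3% of Gapdh counts.

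Tpi1, the triose phosphate isomerase, was at 52.4 TPM, far under Aldoa and Gapdh, the enzymes of the steps on either side of it. It was at 24.0 and 20.3 CPM in WT hosts and, in PAD4-DN hosts, at 17.7 and 33.8 CPM, and was the only enzyme highest in PAD4-DN replicate 2. This value rests on the 6 Tpi1 transcripts that could be matched. Of the 1078 transcripts that matched no gene, the most abundant, of 1601 bases, was at 694 and 555 TPM in WT and at 569 and 583 TPM in PAD4-DN. The gene it belongs to was not determined, so a low level of Tpi1 and a Tpi1 transcript missing from the match cannot be told apart.

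Pyruvate kinase, encoded by Pkm, makes pyruvate in the last step before lactate, and its transcripts carry 1 of 2 alternative exons. The M1 form is typical of muscle and brain, and the M2 form of embryonic and proliferating cells. Pkm was at 3163 and 2222 CPM in WT hosts and, in PAD4-DN hosts, at 2332 and 2401 CPM, and its log2 fold change was −0.19 (SE 0.20), with WT replicate 1 again the highest. The exons that set the forms apart are the evidence by which reads are assigned to them, and are printed with the bases that differ in capitals. Both are coding exons of 167 bases, differ at 64 of them and are placed on build GRCm38 by GENCODE.
M1 exon, chr9:59675029-59675195, plus strand: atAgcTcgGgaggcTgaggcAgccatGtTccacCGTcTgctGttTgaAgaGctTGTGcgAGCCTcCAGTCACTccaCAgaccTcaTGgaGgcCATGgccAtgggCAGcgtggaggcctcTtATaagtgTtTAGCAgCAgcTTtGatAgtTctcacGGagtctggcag
M2 exon, chr9:59675568-59675734, plus strand: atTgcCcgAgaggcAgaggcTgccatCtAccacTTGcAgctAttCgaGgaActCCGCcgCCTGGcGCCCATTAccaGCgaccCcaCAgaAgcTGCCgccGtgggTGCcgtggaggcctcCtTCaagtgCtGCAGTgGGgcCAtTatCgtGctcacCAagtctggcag

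The M2 transcript made up 75.4% and 78.1% of Pkm TPM in WT and 76.2% and 69.0% in PAD4-DN. For the M1 transcript the shares were 20.04% and 14.9% (WT) and 17.5% and 23.2% (PAD4-DN). The M2 form was thus the main one in every library, at 76.7% ± 1.95 in WT and 72.6% ± 5.10 in PAD4-DN (SD, n = 2 each), and the groups overlapped. The forms share nearly all other exons, so the shares rest on the reads that reach the alternative exon. Across the module 20 genes had at least 2 transcripts of 10% or more of the gene's TPM in some library, and 26 of 32 had the same main transcript in all 4 libraries.

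**Figure D3:**
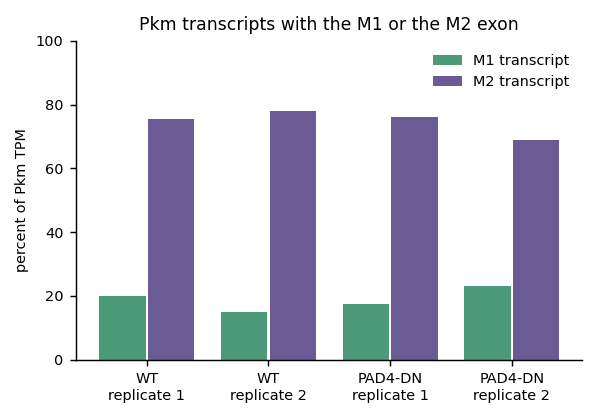
Percent of Pkm TPM in the transcript with the M1 exon (green) and with the M2 exon (purple) in each library. The M2 bars stand between 69.0% and 78.1% and the M1 bars between 14.9% and 23.2%.

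Among the kinases that steer flux, Pdk1 blocks entry of pyruvate into the mitochondrial cycle, and Pfkfb3 and Pfkfb4 set the level of an activator of phosphofructokinase. Pdk1 was at 223 and 154 CPM in WT hosts and, in PAD4-DN hosts, at 163 and 205 CPM, in the same order as Slc2a1. Pfkfb3 kept that order at a low level, at 17.3 and 13.9 CPM in WT hosts and, in PAD4-DN hosts, at 14.4 and 16.6 CPM. Pfkfb4 went the other way, at 1.76 and 3.41 CPM in WT hosts and, in PAD4-DN hosts, at 4.05 and 2.43 CPM. It rested on 40 to 86 counts a library and was the only member lowest in WT replicate 1 in CPM. Its log2 fold change of 0.32 (SE 0.48) became −0.31 with effective length offsets.

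Oxygen sensing was represented by Hif1a, the regulated subunit, and by Egln1 and Egln3, prolyl hydroxylases that mark it for destruction and that are themselves HIF targets. Hif1a was at 390.3 and 301 CPM in WT hosts and, in PAD4-DN hosts, at 300.1 and 452 CPM, highest in PAD4-DN replicate 2. Since Hif1a is regulated mainly as a protein, its transcript level is not a measure of HIF activity. Egln3 was at 441 and 236 CPM in WT hosts and, in PAD4-DN hosts, at 286 and 399 CPM, a WT gap of 1.87-fold. Egln1 was at 135 and 94.99 CPM in WT hosts and, in PAD4-DN hosts, at 117 and 109.6 CPM, a WT gap of 1.42-fold. Log2 fold changes of the 3 genes between groups were 0.12 (SE 0.25), −0.02 (SE 0.19) and 0.02 (SE 0.33) for Hif1a, Egln1 and Egln3.

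Several hypoxia-induced genes outside glycolysis had wide gaps between the WT libraries. Adm, which encodes the vasodilator peptide adrenomedullin, was at 176 and 60.4 CPM in WT hosts and, in PAD4-DN hosts, at 82.8 and 115 CPM. Ndrg1, a stress-induced gene used as a hypoxia marker, was at 516 and 189 CPM in WT hosts and, in PAD4-DN hosts, at 383 and 359 CPM. With Slc2a1, these were the 3 members with WT gaps over 2.5-fold, at 2.91-fold for Adm, 2.73-fold for Ndrg1 and 2.76-fold for Slc2a1. Bhlhe40, a transcriptional repressor, was at 148 and 70.7 CPM in WT hosts and, in PAD4-DN hosts, at 94.4 and 139 CPM. Bnip3, which directs damaged mitochondria to autophagy, was at 215 and 113 CPM in WT hosts and, in PAD4-DN hosts, at 169 and 201 CPM. For both genes, as for Adm and Ndrg1, the WT libraries enclosed the PAD4-DN libraries. Ero1a, which forms disulfide bonds in secreted proteins, was at 738 and 384 CPM in WT hosts and, in PAD4-DN hosts, at 565 and 829.8 CPM, so that PAD4-DN replicate 2 was its highest library.

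Smaller gaps of the same order were seen in Mxi1, a MYC antagonist, at 186 and 125 CPM in WT hosts and, in PAD4-DN hosts, at 139.9 and 163 CPM. Higd1a, a small mitochondrial protein, was at 44.6 and 28.6 CPM in WT hosts and, in PAD4-DN hosts, at 34.0 and 39.2 CPM. Ankrd37, an ankyrin repeat gene, was at 7.43 and 4.76 CPM in WT hosts and, in PAD4-DN hosts, at 5.47 and 6.79 CPM, on 112 to 169 counts a library. Kdm3a, a histone demethylase, had the narrowest CPM range of the module, at 148 and 127 CPM in WT hosts. In PAD4-DN hosts it was at 128 and 147 CPM. On the TPM scale Kdm3a lost this order, at 51.9 and 55.2 TPM in WT and 53.5 and 61.2 TPM in PAD4-DN. Ddit4, an inhibitor of the growth kinase mTOR, was at 51.7 and 38.5 CPM in WT hosts and, in PAD4-DN hosts, at 35.3 and 65.1 CPM, and Mif was at 160.4 and 97.6 CPM in WT hosts and, in PAD4-DN hosts, at 115 and 86.3 CPM. Mif shares 60.5% of its 31-base words with other genes, whose counts came to 1.88% to 3.11% of its own. Car9 followed another order, at 5.36 and 6.58 CPM in WT hosts and, in PAD4-DN hosts, at 11.2 and 2.98 CPM. In CPM it was the only member for which PAD4-DN replicate 1 was at least 3 times PAD4-DN replicate 2. On the TPM scale that gap was smaller, with Car9 at 4.47 and 7.02 TPM in WT and 11.7 and 5.67 TPM in PAD4-DN. The log2 fold changes of these 12 hypoxia-induced genes lay between −0.36 (SE 0.27) for Mif and 0.32 (SE 0.35) for Ero1a, with a median of 0.04.

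**Figure D4:**
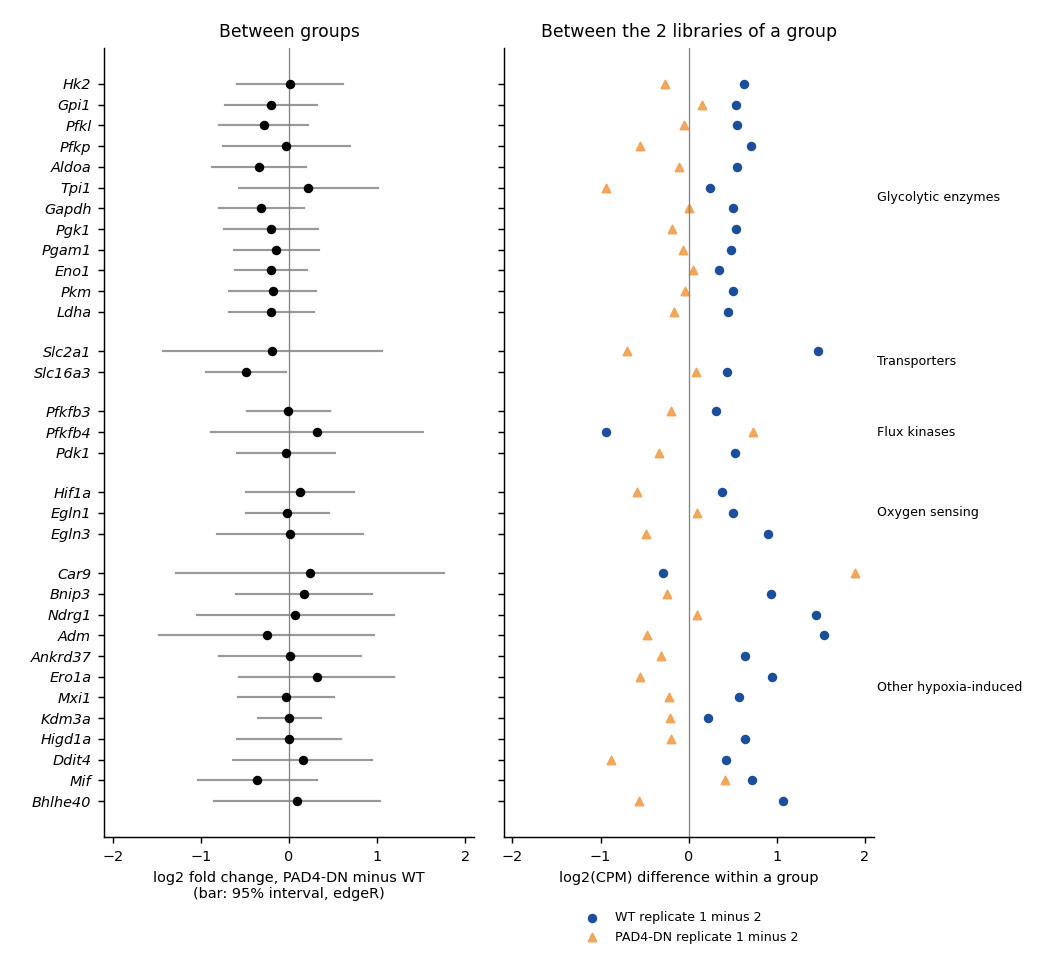
Left, log2 fold change of PAD4-DN minus WT for each gene with its 95% interval from edgeR; right, log2(CPM) difference between the 2 libraries of each group. All intervals but that of Slc16a3 cross 0, whereas the WT gap (blue) is above 0 for all genes but Pfkfb4 and Car9.

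Other genes of the pathway were read from 3 further lists of 68 genes, of which 56 were tested. None passed by edgeR (0.0% of all genes tested), and 2 of 56 had an unadjusted p under 0.05, against 2.66% of all genes tested. Among 30 further hypoxia targets, WT replicate 1 was highest in CPM for 13 (22.0% of all genes) and WT replicate 2 lowest for 16 (21.0%), and their median WT gap was 0.36 on the log2 scale. Vegfa, the main angiogenic factor, was at 101 and 50.6 CPM in WT hosts and, in PAD4-DN hosts, at 69.5 and 80.2 CPM, enclosed by the WT libraries like Adm. The glycogen branching enzyme Gbe1 was at 62.8 and 31.1 CPM in WT hosts and, in PAD4-DN hosts, at 62.4 and 59.0 CPM. By smallest p the list also gave Jmjd6 (log2 fold change −0.31, SE 0.16) and Insig2 (0.15, SE 0.14). Among 11 tested HIF subunits and regulators, WT replicate 1 was highest for 1, WT replicate 2 was lowest for 2 and the median WT gap was 0.00. Arnt, the partner of the HIF alpha subunits, was at 119 and 103 CPM in WT hosts and, in PAD4-DN hosts, at 117 and 132 CPM. Arnt2 (−0.42, SE 0.51), Elob (−0.08, SE 0.17) and Eloc (0.09, SE 0.18) followed by p. This list leaves out Hif1a, Egln1 and Egln3, which are members and had WT gaps of 0.38, 0.51 and 0.90 on the log2 scale.

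Of 15 tested isoforms of the enzymes and transporters, WT replicate 1 was highest for 4. Pfkfb2, another kinase of the Pfkfb family, was at 9.01 and 8.01 CPM in WT hosts and, in PAD4-DN hosts, at 13.8 and 12.1 CPM, a log2 fold change of 0.60 (SE 0.20, unadjusted p = 0.0252, adjusted p = 0.988 by edgeR). Aldoc was at 1.14 and 1.03 CPM in WT hosts and, in PAD4-DN hosts, at 0.439 and 0.335 CPM (a log2 fold change of −1.48, SE 0.52, adjusted p = 0.988 by edgeR). Its values rested on only 8 to 26 counts a library. Eno3 (−0.40, SE 0.19) and Eno2 (0.55, SE 0.26) came next by p. In level, Hk1 (86.4 TPM) stood beside Hk2 (81.1 TPM), and the lactate and pyruvate transporter Slc16a1 (149 TPM) stood above Slc16a3 (28.2 TPM). Pfkfb2 and Pfkfb1 also had more TPM than Pfkfb4. Slc16a1 was at 527 and 402 CPM in WT hosts and, in PAD4-DN hosts, at 289 and 611 CPM, highest in PAD4-DN replicate 2. Epas1, which encodes the other main HIF alpha subunit, was at most 0.732 TPM in any library. Ldhb, the lactate dehydrogenase form that Ldha pairs with, was at most 0.475 TPM.

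Genes used as markers of other cells also differed between the libraries. Whether their transcripts came from such cells or from the tumour cells themselves was not tested. In bulk samples, fewer cells of a type and less RNA per cell cannot be told apart. All 9 fibroblast markers were detected in all libraries and summed to 4357 and 4885 TPM in WT and 6906 and 4404 TPM in PAD4-DN, with Col3a1 the largest part at 3059.7 and 3398 TPM against 5100.0 and 2754 TPM. The other fibroblast markers took several orders. Col1a1 was at 3.67 and 127 TPM in WT and 161.5 and 4.14 TPM in PAD4-DN. Col1a2 was at 0.421 and 108 TPM in WT and 129 and 1.24 TPM in PAD4-DN. Postn was at 0.0996 and 64.1 TPM in WT and 31.8 and 0.833 TPM in PAD4-DN. WT replicate 2 and PAD4-DN replicate 1, the high libraries for these genes, also had the lowest module medians. Dcn was at 840 and 692 TPM in WT and 911 and 961 TPM in PAD4-DN, and so did not follow these collagens. Dcn and Fap were lowest in WT replicate 2, and Lum was highest in PAD4-DN replicate 2. The 8 endothelial markers summed to 30.5 and 27.5 TPM in WT and 50.1 and 33.1 TPM in PAD4-DN, and the 11 macrophage markers to 60.7 and 65.02 TPM against 128 and 24.4 TPM. The 9 neutrophil markers summed to 49.2 and 9.25 TPM in WT and 67.8 and 15.3 TPM in PAD4-DN, with Ly6g at 0 counts in 3 libraries. S100a8 and S100a9 made up most of these sums. In TPM, Cxcr2, Mmp8 and Ngp were higher in each PAD4-DN library than in either WT library, and Mmp9 was lower, all at low levels. In CPM, 15.4% of all genes tested were higher in this way and 17.4% lower. The 10 erythroid and platelet markers summed to 138 and 19.8 TPM in WT and 507 and 16.4 TPM in PAD4-DN. The 7 pericyte and smooth muscle markers summed to 9.13 and 12.2 TPM against 14.8 and 13.0 TPM, and the 8 skeletal muscle markers to 8.35 and 9.25 TPM against 7.22 and 6.99 TPM, with Pvalb at 0 counts in all 4. The 11 immediate early and stress genes, which tissue dissociation can induce, summed to 512 and 1565 TPM in WT and 2508 and 915 TPM in PAD4-DN. From low to high these sums ran WT replicate 1, PAD4-DN replicate 2, WT replicate 2, PAD4-DN replicate 1, whereas the module's median from high to low ran WT replicate 1, PAD4-DN replicate 2, PAD4-DN replicate 1, WT replicate 2, the same order but for the last pair. The part of these cells and of dissociation in the differences between libraries was not tested.

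**Figure D5:**
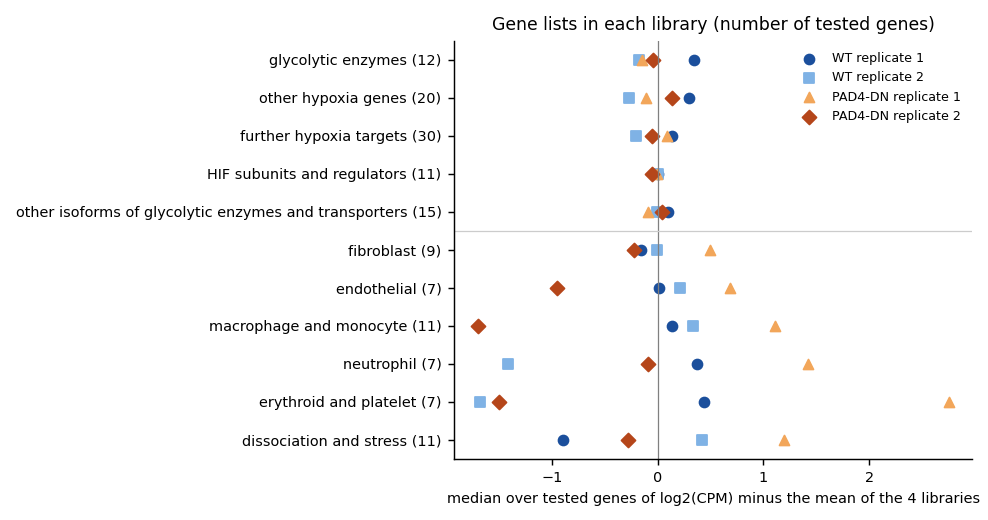
Median over the tested genes of each list (number in brackets) of log2(CPM) minus the mean of the 4 libraries. WT replicate 1 leads and WT replicate 2 trails for the enzymes, the other hypoxia genes and the further hypoxia targets. PAD4-DN replicate 1 leads for the 6 lists drawn under the line (genes used as markers of 5 cell types, and dissociation genes). Skeletal muscle markers, not drawn, were lowest in PAD4-DN replicate 1 (−0.43).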

How the data were processed

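Poly-A RNA was sequenced from sorted tumour cells in 4 libraries, 2 per group. Per the labels' protocols, 100 ng of total RNA and 13 PCR cycles were used for a strand-specific library. The submitters' processing notes name kallisto and GRCm39, with no version, annotation release or settings. Each of the authors' tables, per the file headers, holds estimated counts, TPM and the effective length (in bases) of 117486 transcripts. The TPM values deposited by the authors sum to 1000000.

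Transcripts were matched without version to GENCODE release M21 (an earlier build, used for names only): 116408 matched and 1078, with 0.483% to 0.493% of counts, did not and were left out. Estimated counts and TPM were summed per symbol (Ero1l was renamed Ero1a through RefSeq, and 2 gene identifiers named Aldoa were summed) and counts were rounded. edgeR 4.0.16 in R 4.3.3 (TMM, filterByExpr, quasi-likelihood test, Benjamini-Hochberg at 0.05) compared PAD4-DN with WT over 13706 genes without a replicate block. It was also run on simulated counts, drawn gene by gene from the spread fitted to these data. The simulation held no shift shared by many genes of a library, so it does not cover such shifts. Alternatives were DESeq2 1.42.0; edgeR with DESeq2's size factors, without the filter on low counts, with effective length offsets, with a replicate block, at a false discovery rate of 0.1, or leaving out 1 library at a time; and limma-trend (limma 3.58.1) on log2(TPM + 1) for genes averaging 1 TPM or more. Library deviations used log2(CPM) with a prior count of 1. All 32 members are named; of each further pathway list, the 4 genes with the smallest p and isoforms above their member in TPM are named, except 1 gene that is not reported here, and Vegfa, Epas1, Ldhb, the orders of single fibroblast markers and the remark on Car9 were chosen after values were seen. The members and lists were chosen with earlier results of these data known. No molecular identifiers are named, so read copies from PCR count as separate reads.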

Additional observations from a re-analysis of the deposited data

How the results depend on the processing

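No member passed under any of the settings run. Over all genes, DESeq2 called 10, edgeR without the low-count filter 10, edgeR without WT replicate 2 called 2 and without PAD4-DN replicate 1 called 1, against 0 otherwise among the planned settings; without each library in turn the count ran from 0 to 2. edgeR gave 365 genes an unadjusted p under 0.05 and DESeq2 366. With the replicate number as a block, edgeR called 0 members and 0 genes, and the medians were −0.01 for the module, −0.18 for enzymes and 0.02 for the other genes. The numbers are not stated to pair the samples, and deviations of same-numbered libraries correlated at r = −0.35 over 13706 genes. A block on the crossed pairing, added after the data were seen, called 1 gene and 0 members.

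Leaving out each library in turn moved the module's median from −0.35 to 0.25, that of enzymes from −0.42 to 0.0901 and that of the other genes from −0.28 to 0.34, lowest without WT replicate 2 and highest without WT replicate 1. With 1 library left in a group, that library is assumed to vary like the others. Settings added after the data were seen left out the 12 members sharing over 10% of their 31-base words with other genes (medians 0.00, −0.03 and 0.00, with 3 enzymes left), or Tpi1 (−0.03 for the module and −0.20 for enzymes). The module's median by library kept its sign with DESeq2 size factors and on log2(TPM + 1).

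Signs of single members, none of them called, kept their main direction in 178 of 192 results over the 6 other settings. They turned for Higd1a with DESeq2 (−0.0040) and with its size factors (−0.0038), and without the low-count filter for Hk2 (−0.0014), Ankrd37 (−0.0034), Kdm3a (−0.0087) and Higd1a (−0.0123). They turned with effective length offsets for Pfkfb4 (−0.31), with the replicate block for Car9 (−0.0314), and on log2(TPM + 1) for Pfkp (0.0378), Slc2a1 (0.0563), Pfkfb4 (−0.12), Pdk1 (0.0720), Egln1 (0.0702) and Mxi1 (0.0643). Leaving out each library in turn turned 43 of 128 results, in 28 members; the causes were not tested. The log2 fold changes then ran from −0.27 to 0.36 for Hk2, −0.45 to 0.0892 for Gpi1, −0.54 to 0.0092 for Pfkl, −0.34 to 0.37 for Pfkp, −0.33 to 0.60 for Tpi1, −0.45 to 0.0935 for Pgk1, −0.37 to 0.12 for Pgam1, −0.42 to 0.0911 for Pkm, −0.41 to 0.0449 for Ldha, −0.75 to 0.72 for Slc2a1, −0.16 to 0.16 for Pfkfb3, −0.0973 to 0.87 for Pfkfb4, −0.28 to 0.25 for Pdk1, −0.21 to 0.38 for Hif1a, −0.26 to 0.25 for Egln1, −0.37 to 0.54 for Egln3, −1.01 to 0.90 for Car9, −0.22 to 0.71 for Bnip3, −0.48 to 0.97 for Ndrg1, −0.83 to 0.71 for Adm, −0.28 to 0.36 for Ankrd37, −0.0834 to 0.86 for Ero1a, −0.30 to 0.28 for Mxi1, −0.11 to 0.12 for Kdm3a, −0.29 to 0.36 for Higd1a, −0.36 to 0.52 for Ddit4, −0.68 to 0.0446 for Mif, −0.35 to 0.72 for Bhlhe40. Each group has 2 libraries, so differences of the size seen between the WT libraries could not be told from 0 between groups.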
